A study of Mus musculus with 6 samples.

Results

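The nuclear genes for subunits of the oxidative phosphorylation complexes were followed in mouse bone marrow-derived macrophages, primary macrophages grown from bone marrow. The members were chosen by name: every gene of the deposited table whose symbol begins with Nduf and a subunit letter, with Uqcr, with Cox4 to Cox8 or with Atp5, together with Cyc1 and the Sdha, Sdhb, Sdhc and Sdhd genes. This gave 89 of the 21959 genes in the table: 39 for complex I, 4 for complex II, 9 for complex III, 19 for complex IV and 18 for complex V. The rule uses no measured value.

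Oxidative phosphorylation takes place at the inner membrane of the mitochondrion. Complexes I and II pass electrons from NADH and succinate to coenzyme Q, complex III passes them on to cytochrome c, and complex IV reduces oxygen with them. Complexes I, III and IV pump protons, and complex V, the ATP synthase, uses the proton gradient to make ATP. Most subunits are encoded in the nucleus and a small core set in mitochondrial DNA, and inflammatory activation of macrophages is known to shift their energy metabolism between respiration and glycolysis.

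The cells were wild type (WT per the labels) in both groups, and all received conditioned medium mixed with an equal part of fresh medium for 24 h. The medium came from macrophages of the lung alveoli, taken from mice aged 8 to 12 weeks and isolated as negative or positive for the serotonin receptor HTR2C. These donor cells had conditioned the medium for 48 h. Libraries N1, N2 and N3 received medium from HTR2C-negative donor cells and libraries P1, P2 and P3 medium from HTR2C-positive ones. No sample of cells in fresh medium alone was analysed here. Nothing in the labels ties the sample numbers to separate animals, cultures or preparations of medium. The p-values therefore reflect the spread among these samples, and that spread may be technical.

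The 6 libraries held 12843971 to 16031723 counts and 12147 to 13179 detected genes. A count of 0 allows up to 3 counts, or 0.187 to 0.234 CPM (counts relative to the library total), and that limit covers counting error only. All 8 macrophage markers checked were detected, with a summed 24263 to 26208 CPM in the negative libraries and 22920 to 25724 CPM in the positive ones. The 4 T cell markers in the table summed to at most 1.39 CPM in any library. Of 9 neutrophil markers, Ly6g was at 0 in all libraries, and the list summed to 896 to 1125 CPM in the negative and 1092 to 1375 CPM in the positive libraries. The alveolar macrophage list summed to 132 to 151 CPM in all 6 libraries, and the fibroblast list to 51.2 to 63.8 CPM. The mast cell and basophil list reached 14.5 CPM, and the B cell, dendritic cell, erythroid and epithelial lists reached at most 9.58 CPM. Libraries N2 and P1 stood apart from the others in their groups, with 8.14% and 7.03% of counts on the actin gene Actb against 10.3% to 13.5% in the other 4.

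Most members were abundant. In FPKM, which corrects each count for library total and gene length, 78 of the 82 members tested lay above the median of all tested genes, 2.37 FPKM (mean of 6 libraries). In complex I the levels ran from 0.532 FPKM for Ndufb2, an accessory subunit, to 363 FPKM for Ndufa1, an accessory subunit of the membrane arm. In complex II they ran from 7.05 FPKM for Sdhc to 190 FPKM for Sdhb, and in complex III from 21.6 FPKM for Uqcrc2 to 147 FPKM for Uqcr11. Complex IV had the highest member, Cox6b1 with 512 FPKM, and the low Cox4i2 with 0.922 FPKM. In complex V the levels ran from 6.57 FPKM for Atp5o to 87.4 FPKM for Atp5c1. Levels on this scale depend on the gene length in the table, which is 5628 bases for Ndufb2.

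**Figure D1:**
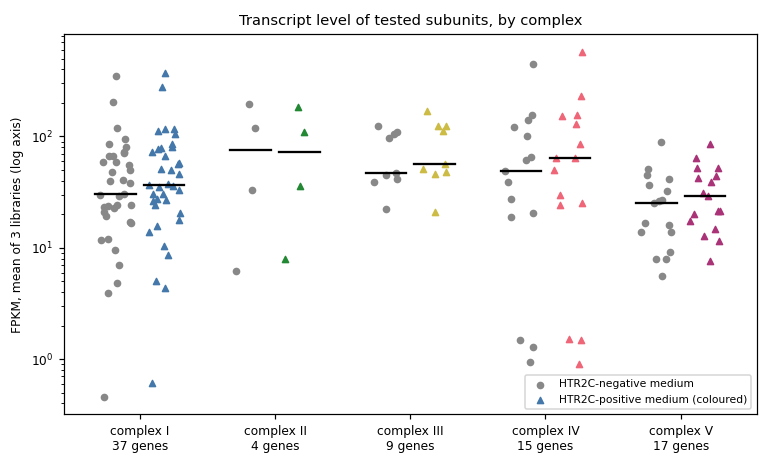
Transcript level of each tested member by complex, as the mean FPKM of the 3 libraries of each group on a log axis; grey circles are HTR2C-negative medium, coloured triangles HTR2C-positive medium and bars the medians. The medians are higher in HTR2C-positive medium in complexes I, III, IV and V, most clearly in complex IV (48.6 FPKM negative, 64.6 FPKM positive). In complex II they are 76.2 and 73.3 FPKM. FPKM here is scaled by library total alone. In addition, 4 members fall below 2 FPKM while Cox6b1 reaches above 400 FPKM in both groups.

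Of the 89 members, 82 passed edgeR's filter on low counts and were tested: 37 of complex I, 4 of complex II, 9 of complex III, 15 of complex IV and 17 of complex V. Among the 7 others, Ndufb11b, Cox7b2, Cox8b, Cox8c and a second gene ID named Atp5o had 0 counts in every library, Cox6b2 had 0 counts in the negative libraries and 1 count in each positive one, and Ndufa4l2 had 1 to 7 counts. Cox6b2, Cox7b2 and Cox8c are isoforms known from testis, Cox8b is one of heart and skeletal muscle, and Ndufa4l2 is known for its induction in hypoxia.

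The comparison asked how these transcripts differ after medium from HTR2C-positive against HTR2C-negative donor cells. The fitted fold changes of the member genes lay mostly slightly above 0, but P1 did not lie above the negative libraries. The mean log2 CPM of the members was 5.74, 5.59 and 5.80 in N1 to N3 and 5.67, 5.98 and 5.83 in P1 to P3. Of the 7 members that were higher at an unadjusted p under 0.05, 4 were in complex V. These 7 were 8.54% of the members tested, against 7.9% of all genes. The median log2 fold change (positive minus negative) was 0.16 over the 82 members tested and 0.02 over all 10177 genes tested. It was above 0 for 61 members, or 74.4%, against 52.1% of all genes. These genes share the same 6 libraries and are not independent. The median of the members was 0.26 without P1 and 0.05 without P2. It was 0.04 with each library's trend of counts with GC content and length removed. By complex, the median was 0.12 for complex I (29 of 37 above 0), -0.13 for complex II (1 of 4), 0.07 for complex III (6 of 9), 0.17 for complex IV (10 of 15) and 0.20 for complex V (15 of 17). These values depend on the scaling. With total counts alone in place of edgeR's TMM factors (trimmed mean of M-values, which set libraries on the level of the bulk of genes) the median of all genes moved from 0.02 to 0.16 and that of the members to 0.29. The complex II median then turned from -0.13 to 0.02, and an unadjusted p under 0.05 was reached by 27 members that were higher and 0 that were lower, against 11.3% and 3.85% of all genes.

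No member and no other gene passed an adjusted p of 0.05 in edgeR's quasi-likelihood test with Benjamini-Hochberg adjustment over all tested genes. The lowest adjusted p was 0.0616 over all genes and 0.134 over the members, and 1690 genes had an unadjusted p under 0.05. At an unadjusted p under 0.05 no member was lower by edgeR, DESeq2 or limma-voom, against 8.71% of all genes in edgeR. Limma-voom also called 0 genes at an adjusted p under 0.05, while DESeq2 called 394 genes (3.87%), of which 1 was a member, Cox6a1. The libraries of the 2 groups did not overlap for 13 members higher in positive medium, against 10.9% of all genes, and for 3 lower ones, against 11.5%. In complex I these were 5 higher and 1 lower of 37, and in complex V 4 higher and 1 lower of 17. The share of members past the unadjusted threshold in the higher direction was therefore near the background, and the share in the lower direction was below it. For 48 of the 82 members the 95% interval of the fold change lay within 1.5-fold in both directions, and for 77 it lay within 2-fold.

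**Figure D2:**
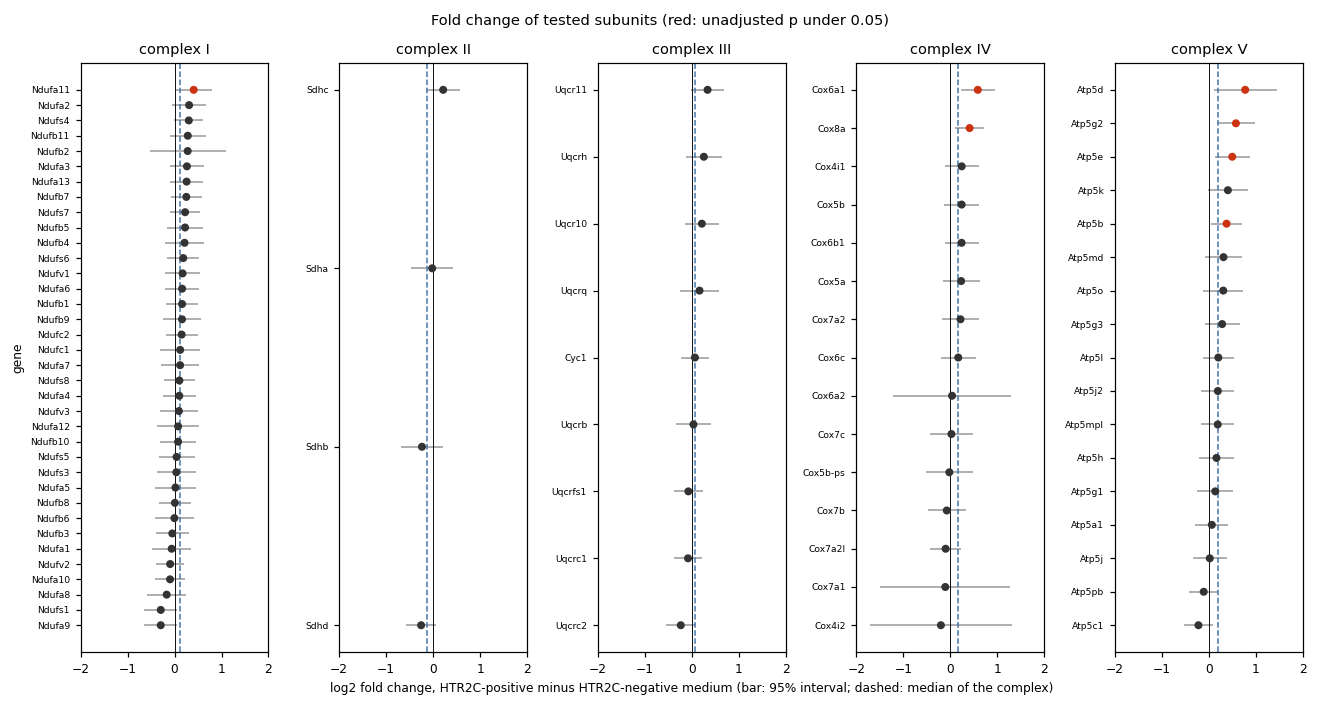
Log2 fold change of each tested member by complex, except 1 gene of complex I that is not reported here, HTR2C-positive minus HTR2C-negative medium, with its 95% interval; the dashed line is the median of the complex and red marks an unadjusted p under 0.05. Most points lie between -0.3 and 0.4, and 4 of the 7 red points are in complex V.

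The 7 members were Atp5d, Atp5g2, Atp5e and Atp5b of complex V, Cox6a1 and Cox8a of complex IV and Ndufa11 of complex I. Members of these families are often described as targets of nuclear respiratory factor 1 (NRF1) and of ETS-type factors, so promoter sequence is shown for those whose stretch before the start site holds such a motif whole. RefSeq promoters of the build GRCm38.p6 (250 bases before to 50 bases after the start) were found for 70 of the 89 member IDs. They were searched on both strands for the palindromic NRF1 motif (the arm GCGCA followed at once by its reverse complement TGCGC) and the ETS motif CCGGAAG, which do not overlap each other in these stretches. Motifs are in capitals, CTTCCGG is the ETS motif read on the other strand, and each sequence runs 5′ to 3′ on the gene's strand. The stretch of Atp5g2 is chr15:102671055-102671114 on the minus strand, that of Cox6a1 is chr5:115348959-115349145 (minus), that of Ndufa11 is chr17:56717677-56717736 (plus), that of Atp5e is chr2:174464169-174464228 (minus) and that of Atp5k, next in p in complex V, is chr5:108434415-108434474 (minus).
Atp5g2: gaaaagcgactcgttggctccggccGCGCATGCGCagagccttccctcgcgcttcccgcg
Cox6a1: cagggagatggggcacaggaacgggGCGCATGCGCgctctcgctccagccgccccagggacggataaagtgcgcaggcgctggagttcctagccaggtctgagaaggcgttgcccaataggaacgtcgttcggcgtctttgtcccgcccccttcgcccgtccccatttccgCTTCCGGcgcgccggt
Ndufa11: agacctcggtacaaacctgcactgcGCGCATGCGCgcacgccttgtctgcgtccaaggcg
Atp5k: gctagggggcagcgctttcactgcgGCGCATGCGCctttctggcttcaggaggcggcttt
Atp5e: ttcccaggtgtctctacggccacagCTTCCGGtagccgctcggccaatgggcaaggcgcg

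The NRF1 motif begins 42 bases before the start of Atp5g2, 162 before that of Cox6a1, 60 before that of Ndufa11 and 50 before that of Atp5k, and in Uqcrc1 it lies 30 bases after the start. It was present in these 5 members, 6.67% of the 75 member promoters, against 0.971% of all 32851 promoters of the same length. The ETS motif was present in 17 members, 22.7% of member promoters against 8.86% of all. The YY1 motif AAGATGGC, also searched on both strands, was present in 10 members, 13.3% against 2.75%, and in none of the 7. Of the 209 tested genes with the NRF1 motif, 11.0% were called higher and 7.66% lower by the same unadjusted threshold, against 7.9% and 8.71% of all genes tested, with a median log2 fold change of -0.02. A match describes the letters in the window and is no evidence of binding.

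Complex V makes ATP in its F1 head and turns on a membrane ring of c subunits. Atp5b encodes the catalytic beta subunit of the head. Values per library here and below are CPM scaled by the TMM factors. Gene positions are those of the deposited table, on GRCm39. Atp5b was at 180 (N1), 219 (N2) and 193 (N3) CPM and at 287 (P1), 260 (P2) and 222 (P3) CPM. All positive libraries lay above all negative ones, though P3 and N2 nearly met. The log2 fold change was 0.38 (standard error, SE, 0.15, edgeR unadjusted p = 0.030, adjusted p = 0.25), and 0.31 without P1, where the unadjusted p was 0.063.

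Atp5d and Atp5e encode the delta and epsilon subunits of the central stalk of F1. Atp5d (chr10:79974466-79981652) had the largest fold change of any member but overlapped between groups. It was at 10.5, 20.2 and 16.2 CPM in the negative libraries and at 41.2, 21.5 and 17.6 CPM in the positive ones. P1 stood far above all other libraries, and P3 lay below N2. Its log2 fold change of 0.77 (SE 0.31, edgeR unadjusted p = 0.027) became 0.33 without P1 (edgeR unadjusted p = 0.19). Atp5e (chr2:174302865-174305898) was at 26.0, 24.7 and 26.3 CPM against 30.5, 42.9 and 35.2 CPM. Its 3 negative libraries were close together and below all positive ones, with a log2 fold change of 0.50 (SE 0.17, edgeR unadjusted p = 0.014) and 0.62 without P1.

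The c ring is encoded by 3 genes whose mature products are identical and whose targeting sequences differ. Atp5g2 (chr15:102571299-102580787), whose promoter is shown above, was at 13.3, 13.8 and 14.2 CPM in the negative libraries and at 21.96, 22.02 and 17.7 CPM in the positive ones. The groups did not overlap and the negative libraries differed little, with a log2 fold change of 0.57 (SE 0.19, edgeR unadjusted p = 0.0084, adjusted p = 0.16). Atp5g3 was at 35.3, 33.4 and 40.8 CPM against 36.7, 50.9 and 45.5 CPM, and Atp5g1 at 88.6, 78.0 and 90.6 CPM against 70.9, 110.6 and 100.8 CPM. Both overlapped between groups, with log2 fold changes of 0.28 and 0.13 (edgeR unadjusted p = 0.13 and 0.46). Fold changes in these libraries followed the GC content of transcripts. With each library's trend of counts with GC content and length removed, the log2 fold change was 0.43 for Atp5b, 0.37 for Atp5d, 0.27 for Atp5e and 0.27 for Atp5g2, and of these only Atp5b kept an unadjusted p under 0.05. With that trend removed, Atp5g3 was at 0.50 (edgeR unadjusted p = 0.012) and Atp5g1 at 0.07 (edgeR unadjusted p = 0.71). On the FPKM scale the 3 c ring genes averaged 10.4 (Atp5g2), 18.6 (Atp5g3) and 18.3 (Atp5g1).

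None of the other subunit genes of complex V had an unadjusted p under 0.05. The gamma subunit gene Atp5c1, the rotating shaft of F1, lay lower in positive medium with no overlap, at 178, 181 and 179 CPM against 169, 146 and 146 CPM (log2 fold change -0.22, edgeR unadjusted p = 0.14). With the trend with GC content and length removed, Atp5c1 was at -0.07. The alpha subunit gene Atp5a1 overlapped, with a log2 fold change of 0.06. The 5 genes for F1 ranged in log2 fold change from -0.22 to 0.77. All 5 small membrane subunit genes (Atp5j2, Atp5k, Atp5l, Atp5md and Atp5mpl) had a log2 fold change above 0, from 0.19 to 0.40, with a median of 0.20. Among the 4 peripheral stalk genes tested the median was 0.09, and Atp5o, which joins the stalk to F1, did not overlap between groups (11.0, 12.0 and 11.6 CPM against 13.6, 16.2 and 12.9 CPM, edgeR unadjusted p = 0.15). Atpif1, which encodes the inhibitor of ATP hydrolysis by complex V and is no subunit, was at 40.3, 28.0 and 37.2 CPM against 32.8, 46.7 and 40.5 CPM. Its groups overlapped through P1, while P2 and P3 lay above all negative libraries.

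**Figure D3:**
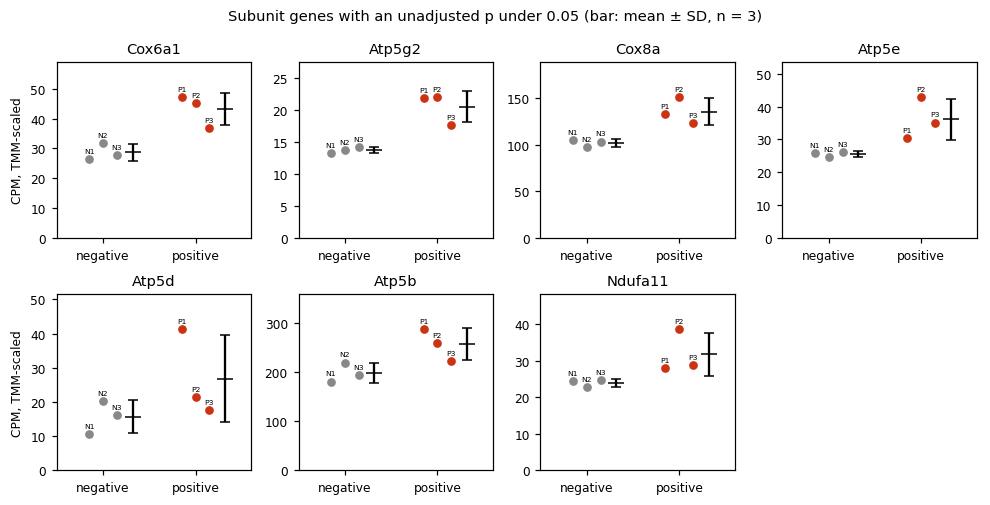
TMM-scaled CPM of the 7 members with an unadjusted p under 0.05, a point per library (N1 to N3 grey, P1 to P3 red), with the mean ± SD of 3 libraries per group. The groups do not overlap in 6 of the 7; in Atp5d the point of P1, 41.2 CPM, stands far above the other 5.

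Complex IV, cytochrome c oxidase, surrounds its mitochondrially encoded core with nuclear subunits, several of which have tissue isoforms. Cox6a1 (chr5:115483701-115487040), the widely expressed form of subunit 6A, had the smallest p of all members. It was at 26.5, 31.9 and 27.7 CPM in the negative libraries and at 47.2, 45.2 and 37.0 CPM in the positive ones. Every positive library lay above every negative one. The log2 fold change was 0.58 (SE 0.17, edgeR unadjusted p = 0.0041, adjusted p = 0.13), and DESeq2 gave an adjusted p of 0.048. With the trend with GC content and length removed, the log2 fold change was 0.001. Cox8a (chr19:7192518-7194981), the widely expressed form of subunit 8, was at 105, 97.5 and 103.5 CPM against 133, 151 and 123 CPM. Its groups did not overlap either, with a log2 fold change of 0.41 (SE 0.14, edgeR unadjusted p = 0.014), which became -0.16 with that trend removed.

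The common forms of the other isoform pairs shared the direction but not the separation. Cox4i1, Cox6b1 and Cox7a2 had log2 fold changes of 0.24, 0.24 and 0.22 and overlapped between groups (edgeR unadjusted p from 0.17 to 0.27). Cox6b1, the most abundant member, was at 347, 299 and 351 CPM against 325, 474 and 378 CPM. Its P2 stood above all others and its P1 lay within the negative range. The alternative forms were low: Cox4i2, known from lung and hypoxia, had at most 1.10 CPM, Cox7a1 and Cox6a2, known from heart and muscle, at most 1.21 and 1.14 CPM, each with intervals wider than 2-fold in both directions. In FPKM, Cox4i1 averaged 115 against 0.922 for Cox4i2, Cox6a1 51.98 against 1.39 for Cox6a2, and Cox7a2 137 against 1.503 for Cox7a1. In both groups the widely expressed form was the abundant one of each pair. Cox7a2l, whose product helps join complexes III and IV into supercomplexes, overlapped (log2 fold change -0.10, edgeR unadjusted p = 0.52).

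Complex I, the entry point for electrons from NADH, had 1 member at an unadjusted p under 0.05. Ndufa11 (chr17:57024767-57029141), an accessory subunit of the membrane arm, was at 24.5, 22.7 and 24.7 CPM against 27.9, 38.6 and 28.9 CPM. The groups did not overlap, and P2 stood above the other positive libraries, with a log2 fold change of 0.41 (SE 0.18, edgeR unadjusted p = 0.041, adjusted p = 0.28). With the trend with GC content and length removed it was -0.02. Ndufs4, an accessory subunit of the peripheral arm whose loss in mice causes a Leigh-like disease, was at 70.3, 66.4 and 71.7 CPM against 79.9, 91.9 and 85.5 CPM. These groups did not overlap, and its log2 fold change was 0.30 (edgeR unadjusted p = 0.051). With the same trend removed, Ndufs4 rose to 0.58 (edgeR unadjusted p = 0.0011). Ndufa2, an accessory subunit of the peripheral arm, was at 123, 113 and 135 CPM against 128, 187 and 145 CPM and overlapped (log2 fold change 0.31, edgeR unadjusted p = 0.087).

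The 7 nuclear core subunits of complex I, which carry the flavin and iron-sulphur clusters, had a median log2 fold change of 0.07, and the 30 accessory or other genes tested had one of 0.14. Among the core genes, Ndufs1 lay lower in positive medium with no overlap (38.9, 37.6 and 45.5 CPM against 35.9, 30.0 and 33.6 CPM, edgeR unadjusted p = 0.093), while Ndufv1 and Ndufs7 lay higher with no overlap. With the trend with GC content and length removed, Ndufs1 was at -0.15, Ndufv1 at -0.13 and Ndufs7 at -0.13. Ndufa4, now counted with complex IV on biochemical grounds, was at 104.1, 82.5 and 104.1 CPM against 89.4, 120 and 102 CPM. Its groups overlapped. Ndufa1, the most abundant complex I transcript per length, also overlapped (169, 114 and 186 CPM against 127, 163 and 160 CPM).

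Complex III, which carries electrons from coenzyme Q to cytochrome c, had no gene at an unadjusted p under 0.05. The 5 small subunit genes (Uqcrb, Uqcrh, Uqcrq, Uqcr10 and Uqcr11) all had log2 fold changes above 0, from 0.04 to 0.34, with a median of 0.22. The 2 core protein genes, Uqcrc1 and Uqcrc2, were below 0 with a median of -0.16. Uqcr11 was at 85.6, 78.4 and 84.8 CPM against 98.1, 125 and 90.7 CPM with no overlap (log2 fold change 0.34, edgeR unadjusted p = 0.053). Uqcrc2 was at 56.5, 62.7 and 58.8 CPM against 55.8, 45.6 and 50.1 CPM, also with no overlap but in the other direction (log2 fold change -0.23, edgeR unadjusted p = 0.14). The difference between small subunits and core proteins was not tested. With the trend with GC content and length removed, Uqcr11 was at -0.25 and Uqcr10 at -0.06. Uqcrq was then at 0.085, Uqcrb at 0.31 and Uqcrh at 0.36, and the core protein genes Uqcrc1 and Uqcrc2 were at -0.37 and -0.04. The median was 0.085 for the small subunit genes and -0.21 for the core protein genes. Of the electron-carrying subunits, cytochrome c1 (Cyc1) and the Rieske iron-sulphur protein (Uqcrfs1) had log2 fold changes of 0.07 and -0.07 and overlapped.

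Complex II, succinate dehydrogenase, is also an enzyme of the tricarboxylic acid cycle and has no mitochondrially encoded subunit. Of its 4 genes, 3 had log2 fold changes below 0. Sdha, the flavoprotein, was at 137, 152 and 133 CPM against 193, 108 and 115 CPM. P1 was the highest and P2 and P3 the lowest of the 6 libraries, so the fold change of -0.02 averages opposite values. Sdhb, the iron-sulphur subunit, was at 527, 376 and 497 CPM against 276, 446 and 465 CPM, with P1 the lowest of all. The 2 catalytic subunits therefore stood at opposite ends in P1. The membrane anchors Sdhc and Sdhd had log2 fold changes of 0.21 (edgeR unadjusted p = 0.23, no overlap) and -0.26 (edgeR unadjusted p = 0.10, overlap).

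Member genes varied together between libraries of the same group. N2 was the lowest negative library for 59 of the 82 members (72.0%, against 37.0% of all genes), P1 was the lowest positive library for 57 (69.5%, against 34.9%) and P2 was the highest positive one for 62 (75.6%, against 31.9%). In complex I, N2 and P1 were each the lowest of their group for 31 of 37 genes. P1 was the highest positive library for 12 members (14.6%, against 37.4% of all genes), among them Ndufs1, Sdha, Cyc1, Uqcrc2 and Uqcrfs1, Cox6a1, and Atp5a1, Atp5b, Atp5c1, Atp5d and Atp5pb. These include 4 of the 5 F1 genes and both nuclear-encoded electron-carrying subunits of complex III, Cyc1 and Uqcrfs1. N2 and P1 were also the libraries with the lowest share of Actb.

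Summed over all members, the level was 6877 (N1), 6014 (N2) and 6972 (N3) CPM and 6271 (P1), 7805 (P2) and 7004 (P3) CPM, with N2 the lowest and P2 the highest. The means, 6621 ± 528 and 7027 ± 767 CPM (SD, n = 3), differed by less than the spread within the groups. This depends on the scaling. As a share of all counts, without TMM factors, the members took 0.606%, 0.637% and 0.647% in the negative libraries and 0.707%, 0.750% and 0.746% in the positive ones, with no overlap. On the TMM scale complex V was the only complex whose sums did not overlap between groups, at 1310, 1274 and 1336 CPM against 1428, 1511 and 1361 CPM. Much of that sum came from Atp5b, with a mean of 197 CPM in the negative and 256 CPM in the positive libraries. Atp5c1 (179 against 154 CPM) and Atp5pb (220 against 204 CPM) went the other way. Whether the sums separate without Atp5b was not tested. Complex I summed to 2444, 2072 and 2500 CPM against 2112, 2805 and 2561 CPM and overlapped. As a share of all counts, the sums of complexes I, III, IV and V did not overlap, and those of complex II did. In bulk RNA, fewer cells of a type and less RNA per cell cannot be told apart.

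**Figure D4:**
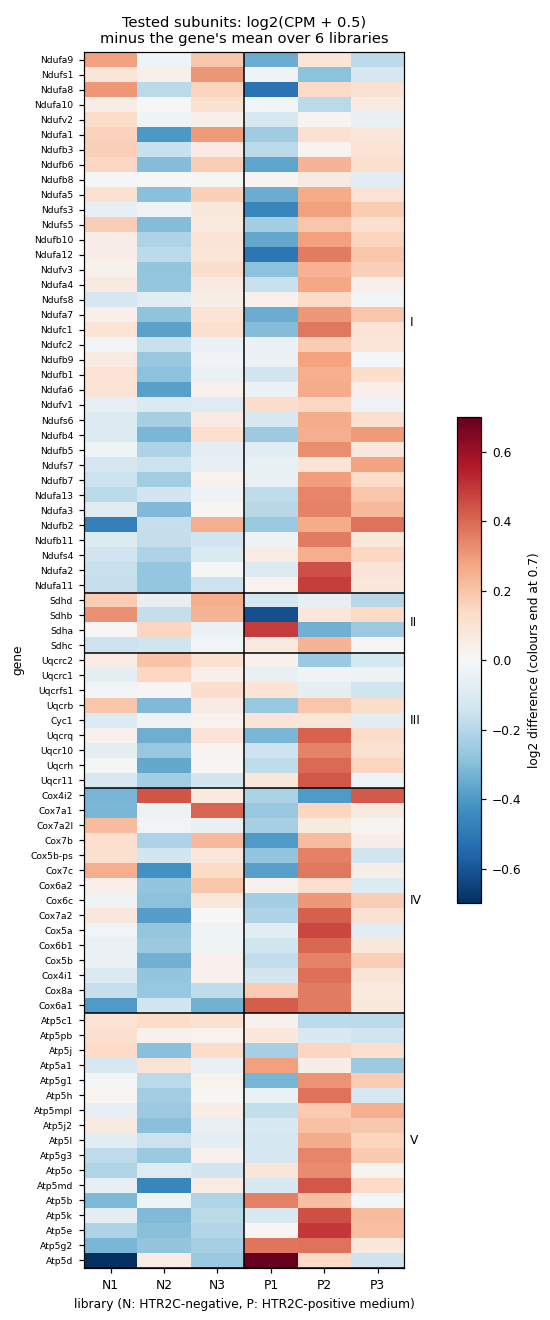
Each tested member in each library, except 1 gene of complex I that is not reported here, as log2(CPM + 0.5) minus the gene's mean over the 6 libraries, ordered by fold change within complexes I to V. The columns of N2 and P1 are mostly blue and that of P2 mostly red; P1 turns red for Sdha, Cox6a1, Atp5b, Atp5d and Atp5g2.

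Leaving out single libraries changed the counts. Without P1, which lay low for most members, 24 members were higher and none lower at an unadjusted p under 0.05, with a median log2 fold change of 0.26, while 8.07% of all genes were higher and 9.05% lower. The 24 were 7 genes of complex I, 4 of complex III, 6 of complex IV and 7 of complex V. At an adjusted p under 0.05 this fit called 1.8% of all genes and no member. Without P2, the library with the highest levels, 3 members were higher and 1 lower (7.24% and 7.53% of all genes), with a median of 0.05. With N2 and P1 both left out, 18 members were higher and 3 lower (11.2% and 12.7% of all genes). In that fit 2 members passed the adjusted threshold, as did 10.9% of all genes. The 2 members were Cox6a1 and Atp5e, with edgeR adjusted p = 0.021 and 0.028. Without N1, 4 members were higher and 0 lower (3.75% and 4.32% of all genes). Without N2, 6 members were higher and 0 lower, as were 1077 and 1020 of the 10477 genes tested. The share of all genes was not computed without N3 or without P3. The count of 7 thus rests on which libraries enter, with a range of 3 to 24 over the 6 fits that leave out 1 library. The share of all genes also changed between these fits.

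The correlation of log2 fold change with transcript GC content was 0.51 over 10162 genes and 0.36 over the 82 members, across genes that share the same 6 libraries and are not independent replicates. It was 0.68 over the 17 genes of complex V. Of the 7 members, 6 had a GC content above 55%, against 12 of the other 75. With each library's trend of counts with GC and length removed, the median became -0.002 for complex I, -0.07 for complex II, -0.04 for complex III, 0.02 for complex IV and 0.27 for complex V, beside 0.01 for all genes. The medians of the other 4 complexes moved towards 0 or past it, and that of complex V moved away from it. In that fit 11 members were higher and 4 lower (4.28% and 5.78% of all genes). The 11 were Ndufa4, Ndufc1, Ndufs4, Uqcrb, Uqcrh, Cox5a, Cox7a2, Atp5b, Atp5g3, Atp5l and Atp5md, and the 4 were Ndufa8, Cyc1, Uqcrc1 and Cox5b-ps, all named after their values were seen. Atp5b alone was among both the 7 and the 11. Whether the trend is technical was not tested.

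Assembly factors, which build the complexes without staying in them, lay around 0 with some genes lower. Of 60 assembly factors on a list by complex, 51 were tested, none was higher and 7 were lower at an unadjusted p under 0.05 in edgeR. That is 13.7%, against 8.71% of all genes, with a list median of -0.01. Cox17, the copper chaperone of complex IV, was at 56.0, 47.5 and 42.1 CPM in the negative libraries and at 35.0, 25.9 and 19.2 CPM in the positive ones (log2 fold change -0.86, edgeR unadjusted p = 0.0014, adjusted p = 0.094). Sco1, which receives copper from Cox17, was at 129, 99.8 and 118 CPM against 82.3, 80.5 and 68.4 CPM (log2 fold change -0.59, edgeR unadjusted p = 0.0023). Cox11, which serves the other copper site of complex IV, was at 8.66, 7.63 and 7.52 CPM against 5.70, 3.90 and 4.23 CPM (log2 fold change -0.78, edgeR unadjusted p = 0.011).

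These 3 genes were named for the smallest p of the complex IV list, and in each of them every positive library lay below every negative one. Other factors on the list that are linked to copper delivery, named after their values were seen, did not share this. Coa6 and Cmc1 had log2 fold changes of -0.19 and 0.01 with overlap, and Cox19 lay the other way, at 13.3, 11.3 and 15.4 CPM against 15.9, 18.4 and 16.9 CPM (edgeR unadjusted p = 0.095). Ttc19, needed for complex III, was at 32.7, 21.8 and 31.3 CPM against 14.4, 16.5 and 18.4 CPM (log2 fold change -0.80, edgeR unadjusted p = 0.0017). DESeq2 gave Cox17, Ttc19 and Sco1 adjusted p-values of 0.010, 0.016 and 0.025. The complex I assembly genes Tmem126b, Ndufaf2 and Ndufaf1 had log2 fold changes of -0.80, -0.81 and -0.46 (edgeR unadjusted p = 0.018, 0.027 and 0.048), all without overlap between groups. With the trend with GC and length removed, 6 factors were lower (5.78% of all genes were). Of the 7, Cox17 (-0.64), Ttc19 (-0.70), Sco1 (-0.40) and Ndufaf2 (-0.69) were among these 6, Cox11, Tmem126b and Ndufaf1 were not, and Ndufaf8 and Coa3 came in. With total counts alone 3 factors were higher and 3 lower, with a list median of 0.10, against 11.3% and 3.85% of all genes. The number lower was 5 without P1 (9.05% of all genes were), 4 without N1 (4.32%) and 7 without N2 and P1 (12.7%).

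**Figure D5:**
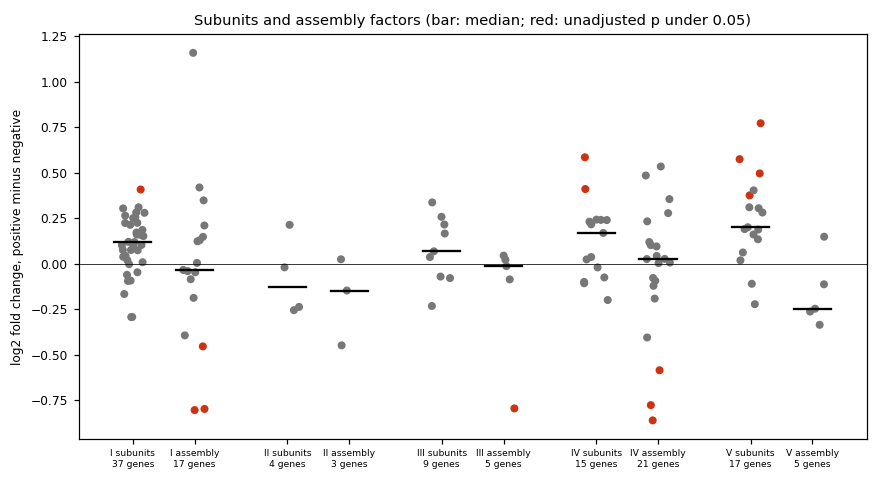
Log2 fold change (positive minus negative medium) of tested subunit genes and assembly factors side by side for complexes I to V, a point per gene, with bars at the medians and red for an unadjusted p under 0.05. All 7 red subunit points lie above 0 and all 7 red assembly factor points lie below 0; with total counts alone in place of TMM factors, 3 assembly factors were higher and 3 lower.

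Other genes of the system were set beside the members. Of 10 tested nuclear regulators of respiratory genes (12 on the list), an unadjusted p under 0.05 was reached by 1 in each direction. Nfe2l1, a factor best known for its control of proteasome genes, was at 14.6, 18.3 and 17.3 CPM against 26.9, 28.8 and 29.2 CPM (log2 fold change 0.75, edgeR unadjusted p = 0.000841). Gabpa, which encodes the DNA-binding part of the ETS factor GABP, was at 29.2, 28.9 and 24.6 CPM against 21.7, 15.1 and 18.4 CPM (log2 fold change -0.58, edgeR unadjusted p = 0.0092). Neither overlapped between groups, and neither passed the adjusted threshold. Of 12 tested genes of general mitochondrial content, the citrate synthase gene Cs was higher (log2 fold change 0.43) and the porin gene Vdac3 lower (-0.37), both with overlap. Of 10 tested mitochondrially encoded subunit genes none was higher or lower, with a median of 0.04. In the fit without the GC and length trend their median was 0.32 and 3 of the 10 were higher, against 4.28% of all genes. The median GC content of these 10 genes was 37.4%, below that of all genes tested. Whether the shift of their median comes from the removal of the trend was not tested. None of the 13 tested cytochrome c and coenzyme Q genes was higher or lower.

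Neutrophil markers lay on the same side as complex V. All 8 tested had log2 fold changes above 0, with a median of 0.50, and 3 of them, Camp, Csf3r and S100a9, were higher at an unadjusted p under 0.05, which 7.9% of all genes were. With the trend with GC and length removed 0 of the 8 were (4.28% of all genes were), with a median of 0.32. Without N1 it was 1 of the 8, against 3.75% of all genes. Of the other marker genes tested, Csf1r of the macrophage list was higher (log2 fold change 0.63, edgeR unadjusted p = 0.0051) and Cpa3 of the mast cell and basophil list lower (-1.05, edgeR unadjusted p = 0.037). The sums of the neutrophil list in the 2 groups, given above, overlapped. The part of these markers in the members' values was not tested.

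Counts of these families carry a limit of their own. Respiratory subunit genes have many processed pseudogenes, of which Cox5b-ps is itself a member by name, and the handling of reads that map to several places is not given in the sources used here. Values of such genes, and of the 2 overlapping IDs named Atp5o, are therefore uncertain in how reads were divided.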

How the data were processed

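RNA-seq libraries were made from total RNA (Trizol, VAHTS Universal V6 RNA-seq kit, per the labels' protocols). Named tools, per the submitters' processing notes, were fastp, HISAT2, StringTie and edgeR, with the build GRCm39. For versions, annotation and counting settings (strand, reads mapping to several places) the entry is: not given in the sources used here. Per the file headers, the deposited table holds unnormalized read counts per gene and FPKM values. The authors' FPKM equal count over length over library total (largest relative difference 3.80e-07).

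Counts of all 6 libraries were fitted in R 4.3.3 with edgeR 4.0.16: filterByExpr (10177 genes kept), TMM factors (0.881 to 1.13), robust quasi-likelihood F test without covariates, Benjamini-Hochberg adjustment over all tested genes, threshold 0.05. SE and 95% intervals are from that fit. The depth was 12843971 to 16031723 counts per library, and SE combine counting error with the spread among the 3 libraries of a group. The fit was tested on simulated data, in which genes varied independently of each other. The simulation held no shift shared by genes of a library and no trend with GC content, and was fitted without the count filter. Its shares may therefore not hold for these libraries. On the simulated data the fit called 15.3% of genes set to change 1.5-fold, 53.3% of those set to 2-fold and 0.07% of unchanged genes. A change of these sizes in a single gene could thus go uncalled at the adjusted threshold.

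Alternatives were other tests (limma-voom in limma 3.58.1, DESeq2 1.42.0), other scalings (total counts alone, RLE factors), other filters (at least 1 CPM in 3 libraries, or none), the replicate number as a block, removal of the per-library dependence of counts on GC content and length (splines with 5 df, GC from GENCODE M21 transcripts, used for no coordinates), both together, each library left out, and N2 and P1 both left out. All p-values are two-sided. Named genes are, per complex, the 3 members with the smallest p and those with the highest and lowest FPKM, plus members of known role, and up to 3 genes of smallest p per list of other genes. Ndufs1, Ndufv1, Ndufs7, Atp5a1, Atp5k, the membrane subunits of complex V, the complex IV factors Cox19, Coa6, Cmc1 and Coa3, Ndufaf8 and single marker genes were named beside this rule, after their values were seen. The values of 1 member of complex I are not reported here; it stays in all counts and medians. The members and lists were chosen with earlier results of these data known. Promoters came from RefSeq (GRCm38.p6). No sequence or coordinate was converted between builds.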

Additional observations from a re-analysis of the deposited data

How the results depend on the processing

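Genes with an adjusted p under 0.05 numbered 0 by edgeR with all libraries and 422 with no count filter, 394 by DESeq2, 0 to 206 when 1 library was left out, and 1107 without N2 and P1. Members higher at an unadjusted p under 0.05 numbered 7, and 27 with total counts alone, 11 with the GC and length trend removed, 18 without N2 and P1, and 3 to 24 when 1 library was left out. Members lower numbered 0, and 4 with the trend removed, 1 with the trend removed and the replicate block, 3 without N2 and P1, and 0 to 1 when 1 library was left out. Shares of all genes higher and lower were 7.9% and 8.71% in the main fit, and 11.3% and 3.85% with total counts alone. They were 4.28% and 5.78% with the trend removed, and 11.2% and 12.7% without N2 and P1. With 1 library left out they were 8.07% and 9.05% (P1), 7.24% and 7.53% (P2) and 3.75% and 4.32% (N1). Without N2, 1077 genes were higher and 1020 lower of 10477, and shares without N3 or P3 were not computed. Deviations from the group mean correlated at -0.15, -0.23 and 0.05 between samples of the same replicate number, against 0.31 for N2 with P1. Deviations from a mean of 3 libraries depend on each other, so these values cannot decide whether the numbers pair the samples. With the replicate block, 4 members were higher and the paired fit called 0 genes. The share of all genes higher was not computed for that fit, so the 4 have no background beside them.

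Medians of log2 fold change with the trend removed were -0.002 for complex I and -0.04 (-0.0425) for complex III, and with the replicate block and the trend removed -0.0065 and -0.0405. With total counts alone they were 0.0153 for complex II, 0.20 for complex III and 0.33 for complex V, and without N2 and P1 they were -0.21 for complex II and 0.29 for complex V. When 1 library was left out they ranged from -0.15 to -0.056 in complex II, from -0.0187 (without P2) to 0.18 (without P1) in complex III and from 0.14 to 0.32 in complex V. Complexes I, II, IV and V kept their side of 0 in all 6 such fits, and complex III did not.

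Over the 31 named members tested, 452 of the values under an alternative kept their direction and side of the adjusted threshold, 38 changed sign and 4 newly passed the threshold. Signs changed with total counts alone for Ndufa1 (0.0859), Sdha (0.13), Uqcrfs1 (0.0691), Cox7a1 (0.0145) and Cox7a2l (0.0346). With the trend removed they changed for Ndufa11 (-0.0194), Sdha (0.0286), Cyc1 (-0.37), Uqcr11 (-0.25), Uqcrfs1 (0.0522), Cox6a2 (-0.18), Cox7a2l (0.0179) and Cox8a (-0.16). With the replicate block and the trend removed, Ndufa11 was at -0.0244, Cyc1 at -0.37, Uqcr11 at -0.25, Uqcrfs1 at 0.0496, Cox6a1 at -0.0137, Cox6a2 at -0.17, Cox7a2l at 0.017 and Cox8a at -0.16. Without N2 and P1 signs changed for Cox4i2 (0.33), Cox6a2 (-0.14) and Cox7a1 (0.0209). When 1 library was left out, Ndufa1 ranged from -0.24 to 0.0987, Ndufa4 from -0.0193 to 0.22, Sdha from -0.32 to 0.13, Cox4i2 from -0.73 to 0.16, Cox6a2 from -0.14 to 0.23, Cox7a1 from -0.34 to 0.28, Cox7a2l from -0.16 to 0.0042 and Atp5g1 from -0.0003 to 0.32. The causes were not tested.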
